A study of Mus musculus with 6 samples.

Results

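Guanylate-binding proteins (GBPs) and immunity-related GTPases (IRGs) were followed in the long RNA of exosomes, the small vesicles that cells release, from mouse bone marrow-derived dendritic cells. The 7 genes were taken by symbol from the deposited transcript table: Gbp2, Gbp3, Gbp5 and Gbp7 of the first family and Irgm1, Irgm2 and Igtp of the second, out of 12384 genes in all. They were listed with 15 of the 27544 transcripts. Exosomes of the mature group came from mature dendritic cells, grown from C57BL/6 marrow to day 7 with GM-CSF (20 ng/ml) and IL-4 (10 ng/ml), given lipopolysaccharide at 5 µg/ml for 24 h, washed, and left in fresh medium for a further 48 h before the vesicles were collected. Exosomes from immature cells, cultured in the same way with PBS in place of lipopolysaccharide, were the control. Each group held 3 libraries. The labels assign lipopolysaccharide or PBS to the arms only through the words mature and immature, their treatment tag reads untreated for all 6 samples, and they give no age, sex or number of animals and do not say whether libraries came from separate cultures. The p-values therefore measure the spread between these libraries, which may be technical.

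Both families are GTPases that interferons, interferon-gamma above all, switch on in macrophages, dendritic cells and other cells to defend them against microbes living in vacuoles or in the cytosol. GBPs are large GTPases of the dynamin superfamily that coat such vacuoles and bacteria and help caspase-11, the intracellular sensor of lipopolysaccharide, to act. IRGs are smaller: effector members load onto the vacuole membrane and break it, while the regulatory members Irgm1, Irgm2 and Igtp (also called Irgm3) sit on the cell's own membranes and hold the effectors inactive there. Transcription of both families is driven through gamma-activated sites and through interferon-stimulated response elements (ISREs), which are bound by IRF1 and by complexes that hold STAT2 and IRF9.

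The 4 GBP genes lie in 1 cluster on chromosome 3, on the plus strand, within 141109 bases, as the table's coordinates read on the mouse build GRCm38. Gbp5 (ENSMUSG00000105504.4, chr3:142496900-142522344) comes first, followed by Gbp7 (ENSMUSG00000040253.15, chr3:142530342-142550149), Gbp3 (ENSMUSG00000028268.14, chr3:142560026-142573207) and Gbp2 (ENSMUSG00000028270.12, chr3:142620602-142638008). Irgm1 (ENSMUSG00000046879.7, chr11:48865245-48871420, minus strand) lies apart from the others on chromosome 11. Igtp (ENSMUSG00000078853.8, chr11:58199556-58207591) and Irgm2 (ENSMUSG00000069874.7, chr11:58199618-58222782) lie farther along the same chromosome, both on the plus strand. The transcript Irgm2-201 begins inside Igtp and spans 7974 of the 8036 bases of Igtp-201 on the genome, so reads of Igtp could be divided between the 2 genes. Members of each family are similar in sequence, and abundances can also depend on how reads shared between paralogs were divided.

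An ISRE core was present in a RefSeq promoter of all 7 genes. RefSeq promoter windows of build GRCm38.p6, from 250 bases before to 50 bases after each start site, matched all 7 symbols, with 8 windows because Gbp3 has 2. The core was searched as GAAA, any 2 bases and GAAA again on both strands and was found in 7 of the 8 windows, against 1131 of all 32851 windows in the table (3.44%). Gbp3's second window, which ends at chr3:142560405, held none. The listed start of Gbp3-202, the most abundant Gbp3 transcript in every library, is at 142560411, just past that second window. Gbp3's window with the core instead holds the listed start of Gbp3-207 (142560026), a transcript listed at 0 in 4 libraries. Whether most of the Gbp3 RNA measured here began near the core was not tested. The stretches around the core are printed because all 7 genes share the core. Motifs were not used to choose the genes, but both families are known to be driven through ISREs. The high share therefore follows largely from the choice of families. Each stretch is written 5′ to 3′ on the strand on which the core reads, with the core in capitals. Read on the minus strand are Gbp2 at chr3:142620589-142620628, Gbp3 at chr3:142559984-142560029, Gbp5 at chr3:142496754-142496793, Gbp7 at chr3:142530268-142530307 and Irgm1 at chr11:48871420-48871465, and on the plus strand Irgm2 at chr11:58214898-58214937 and Igtp at chr11:58199507-58199546.
Gbp2: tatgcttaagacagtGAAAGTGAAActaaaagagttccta
Gbp3: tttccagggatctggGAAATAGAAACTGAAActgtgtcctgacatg
Gbp5: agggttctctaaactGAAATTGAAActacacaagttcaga
Gbp7: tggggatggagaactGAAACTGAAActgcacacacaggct
Irgm1: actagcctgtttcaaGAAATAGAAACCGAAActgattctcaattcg
Irgm2: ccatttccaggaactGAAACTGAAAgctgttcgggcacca
Igtp: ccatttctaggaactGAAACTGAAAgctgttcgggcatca
In Gbp3 and Irgm1 the core ran through a second, overlapping copy, GAAATAGAAACTGAAA and GAAATAGAAACCGAAA. Gbp7, Irgm2 and Igtp carried the same 10 letters, GAAACTGAAA. In the 4 GBP promoters the core read against the direction of the gene and in the 3 IRG promoters along it.

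The distance of the core from the start site and the other motifs beside it differed among the genes. Counting the first transcribed base as 1, the core began at -59 in Gbp2, -53 in Gbp7, -34 in Igtp and -64 in Irgm2, its overlapping copies at -45 and -39 in Gbp3 and at -30 and -24 in Irgm1, and it lay farthest upstream in Gbp5, at -165. A gamma-activated site, searched as TTCNNNGAA on both strands, was found in the windows of Gbp5 and Gbp7 (2 matches each) and of Irgm2 and Igtp (1 each), against 8.30% of all windows. The kappa-B motif bound by NF-kB was found in Gbp5 and Gbp2, 1 match each, against 8.46% of all windows. No 2 of these motifs overlapped each other in the 7 genes, and a match describes letters only. Gbp5 was the 1 promoter of the 7 with all 3 motifs, and its full window (chr3:142496684-142496983, plus strand) is shown with the matches in capitals: a gamma-activated site, the ISRE core, the kappa-B motif and the other gamma-activated site, in that order, with the core and the kappa-B motif read from the opposite strand.
Gbp5: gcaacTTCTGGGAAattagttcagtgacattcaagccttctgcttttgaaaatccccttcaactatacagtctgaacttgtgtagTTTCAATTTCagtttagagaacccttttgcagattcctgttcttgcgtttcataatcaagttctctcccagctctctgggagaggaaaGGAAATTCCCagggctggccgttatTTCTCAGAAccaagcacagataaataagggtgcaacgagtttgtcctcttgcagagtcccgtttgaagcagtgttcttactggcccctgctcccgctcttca
Around their identical core, Igtp and Irgm2 were nearly the same: when their windows were aligned on the core, 38 of the 40 bases from 15 before its first base were the same, and 184 of 270 over the whole overlap (68.1%, without gaps). The same alignment of the other 20 pairs of genes gave 23.6% to 34.5%. In both, 2 bases separate the gamma-activated site from the core, as their windows (chr11:58199306-58199605 and chr11:58214727-58215026, plus strand, both motifs in capitals) show.
Igtp: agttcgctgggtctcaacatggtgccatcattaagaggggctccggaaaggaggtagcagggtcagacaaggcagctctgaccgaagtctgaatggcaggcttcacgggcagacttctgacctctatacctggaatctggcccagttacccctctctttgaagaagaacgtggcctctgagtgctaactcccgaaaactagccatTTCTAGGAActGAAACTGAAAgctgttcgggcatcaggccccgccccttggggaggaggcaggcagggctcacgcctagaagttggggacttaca
Irgm2: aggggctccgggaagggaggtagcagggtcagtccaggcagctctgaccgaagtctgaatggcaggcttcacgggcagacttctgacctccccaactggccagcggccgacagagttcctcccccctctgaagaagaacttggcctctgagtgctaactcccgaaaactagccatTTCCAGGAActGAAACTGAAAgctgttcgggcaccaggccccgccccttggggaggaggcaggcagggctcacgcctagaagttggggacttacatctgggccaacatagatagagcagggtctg
The map of motif matches shows these distances.

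**Figure D1:**
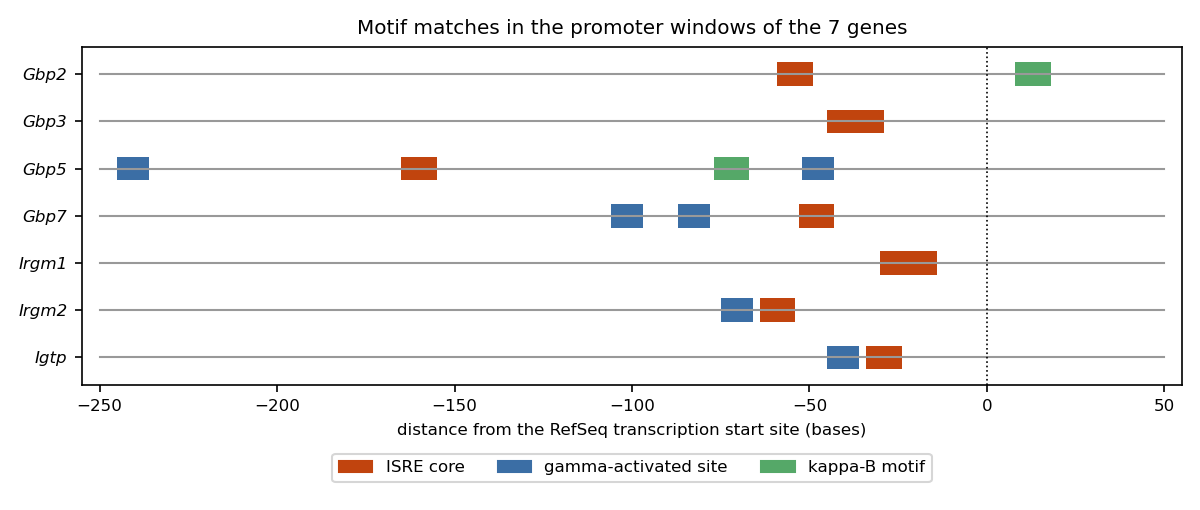
Positions of motif matches in the 300-base RefSeq promoter windows of the 7 genes; the horizontal axis is the distance from the start site in bases, and bars mark the ISRE core, the gamma-activated site and the kappa-B motif on either strand. All 7 rows hold an ISRE core, between -165 and -15, and Gbp5 is the row with all 3 motifs.

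The values analysed were FPKM (fragments mapped to a transcript, scaled to its length and to the library's mapped fragments), deposited per transcript and summed here over the transcripts of a gene. Genes that reached 0.5 FPKM in 3 or more libraries were tested, 10277 in all, and all 7 passed that filter. Gbp5 reached 0.5 FPKM in 4 libraries, the 3 mature ones and immature 2, so it met the filter through the mature group. Fold changes are given on the log2(FPKM + 1) scale, mature minus immature, on which differences between low values appear smaller than they are. Transcripts at 0.5 FPKM or more numbered 12924 to 18775 in the mature libraries and 10912 to 16728 in the immature ones, and summed FPKM was 130401, 281368 and 245683 in mature libraries 1 to 3 and 145370, 135814 and 213737 in immature libraries 1 to 3. The median gene was 0.38 higher in the mature group. Mature 1 and immature 2 had the fewest transcripts in their groups and the largest mitochondrial share of summed FPKM, 0.940% and 2.55% against 0.0696% to 0.282% in the other 4 libraries. Read totals were not among the values used, so no counting interval can be given.

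Transcripts of all 7 genes were detected in exosomes of both kinds, and all 7 had a higher mean in the mature group. Together they summed to 178, 111 and 191 FPKM in mature libraries 1 to 3 and to 40.3, 60.5 and 31.3 FPKM in immature libraries 1 to 3. In RNA pooled over vesicles, more vesicles from 1 kind of cell and more RNA per vesicle cannot be told apart. The largest log2 fold changes were those of Gbp5, Gbp3 and Gbp2, with Gbp5 the 1 gene of the 7 that rose past the test over all genes. Every mature value exceeded every immature value for 6 of the 7, where 16.7% of all genes tested showed this. By limma with Benjamini-Hochberg adjustment, 1 of the 7 passed, against 0.185% of all genes tested (19 higher, 0 lower), and 6 of 7 had an unadjusted p below 0.05 in the higher direction, against 9.52% of all genes (0.224% in the lower direction). Their median log2 fold change was 1.31, beside 0.38 over all genes tested. The 7 were chosen with earlier results of these data known, so these shares are not independent evidence about the 2 families. Of 14 other GBP and IRG-related genes tested, 2 had every mature value above every immature value, against 16.7% of all genes. By the adjusted test 0 of those 14 passed. With each library scaled to the same summed FPKM, an alternative chosen after the sums were seen, the mature and immature values of Gbp2, Gbp7, Irgm1 and Igtp overlapped too, and complete separation held for Gbp3 and Gbp5 (2 of 7, against 10.1% of all genes). There 0 of the 7 passed the adjusted test, against 0.136% of all genes, and 3 had an unadjusted p below 0.05, against 5.93%. Without both mature 1 and immature 2, over the same 10277 genes, 1 of the 7 passed the adjusted test, against 73 of all genes. In that setting 6 of the 7 had an unadjusted p below 0.05 in the higher direction, against 1981 of all genes. The median log2 fold change was then 1.31 for the 7, beside 0.48 over all genes.

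**Figure D2:**
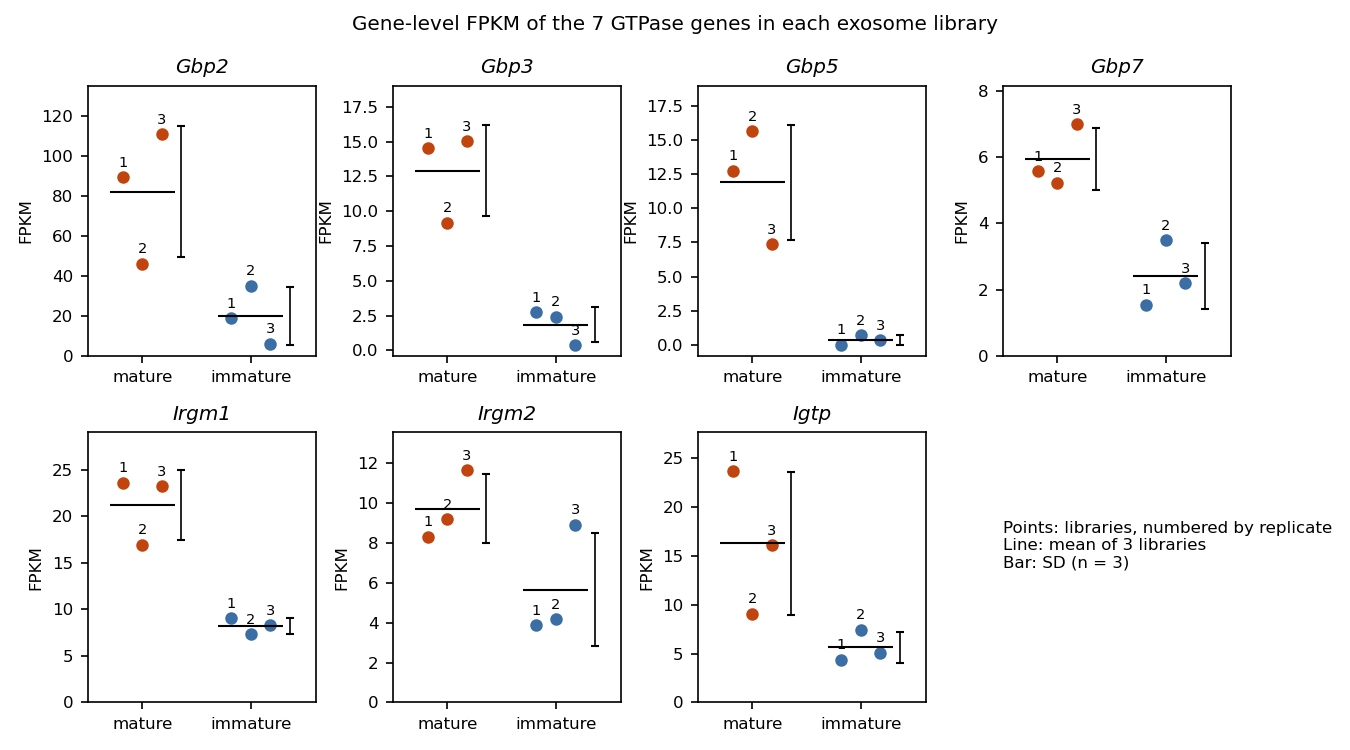
FPKM of the 7 genes, summed over transcripts; each point is 1 library numbered by replicate, with the mean as a line and the SD as a bar (n = 3). In 6 panels the 3 mature points lie above the 3 immature points, and in the Irgm2 panel immature 3, at 8.91 FPKM, lies above mature 1, at 8.29 FPKM.

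Gbp5, whose protein promotes inflammasome assembly in macrophages, was close to absent from the exosomes of immature cells. It was at 12.7, 15.6 and 7.35 FPKM in mature libraries 1 to 3, and was listed at 0, 0.714 and 0.346 FPKM in immature libraries 1 to 3. The lowest mature value was far above the highest immature one, and 1 immature library was at 0. Gbp5 met the filter through its mature values, and without the filter its adjusted p was 0.0269 by limma over all 12384 genes. Gbp5 rose by 3.23 on the log2 scale (SE 0.49, adjusted p = 0.0323 by limma), and 0.253% of all genes tested had a larger one. The call ended without mature 1, mature 2, mature 3 or immature 1 (adjusted p = 0.0945, 0.126, 0.208 and 0.255), under each of 4 other scalings (0.0738 to 0.149), with a pseudocount of 0.1 (0.130) and with the replicate number as a block (0.127), while the log2 fold change stayed between 2.79 and 5.11 over the alternatives. Gbp5-201 was its single listed transcript.

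Gbp2, a prenylated GBP that gathers on parasite vacuoles, was the most abundant of the 7 in 5 of the 6 libraries. It stood at 89.3, 46.1 and 111 FPKM in mature libraries 1 to 3, against 18.7, 35.0 and 6.10 FPKM in immature libraries 1 to 3. The spread within each group was wide, with mature 2 and immature 2 the nearest pair. The mean was 82.1 ± 32.9 FPKM in the mature group and 19.9 ± 14.5 FPKM in the immature group (SD, n = 3 each), and the log2 fold change of 2.19 had an SE of 0.65 and did not pass the test (adjusted p = 0.308 by limma). In immature 3, Gbp2 ranked below Irgm2 and Irgm1. Gbp2 made up 50.3%, 41.4% and 58.0% of the summed FPKM of the 7 genes in mature libraries 1 to 3, and 46.4%, 57.8% and 19.5% in immature libraries 1 to 3.

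Gbp3, a neighbour of Gbp2 in the chromosome 3 cluster, had the second-largest difference of the 7. Its values were 14.5, 9.18 and 15.1 FPKM in mature libraries 1 to 3 and 2.74, 2.41 and 0.394 FPKM in immature libraries 1 to 3. The groups did not overlap, and immature 3 was the lowest library for Gbp3 as for Gbp2. With means of 12.9 ± 3.25 FPKM in the mature group and 1.85 ± 1.27 FPKM in the immature group (SD, n = 3 each), the difference on the log2 scale was 2.39 (SE 0.54, adjusted p = 0.154 by limma). Gbp3-202 held most of the sum in every library, from 73.9% to 96.7% in the mature group and from 70.1% to 100% in the immature group. Gbp3-207 reached 3.80 FPKM in mature 1, 0.0426 FPKM in immature 1 and was listed at 0 elsewhere.

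Gbp7, which helps to assemble the phagocyte oxidase on vacuoles in mouse macrophages, was the least abundant of the 7 genes in each mature library. It stood at 5.57, 5.23 and 6.99 FPKM in mature libraries 1 to 3, against 1.54, 3.50 and 2.20 FPKM in immature libraries 1 to 3. The groups were apart but close, with the nearest pair at 5.23 FPKM in mature 2 and 3.50 FPKM in immature 2. The difference came to 1.05 on the log2 scale (SE 0.47, adjusted p = 0.501 by limma), and 12.9% of all genes tested had a larger one. It was 0.65 to 0.78 under the 4 other scalings. Gbp7-202 was the larger of its 2 transcripts in every library but mature 2, where it held 40.01% of the sum. Its share was 96.9% in mature 1 and 96.2% in immature 2, and 55.7% to 63.2% in mature 3, immature 1 and immature 3.

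Irgm1, a regulatory IRG found on lysosomes and other membranes, had closely spaced values in both groups. Its values were 23.6, 16.9 and 23.2 FPKM in mature libraries 1 to 3 and 9.06, 7.31 and 8.29 FPKM in immature libraries 1 to 3. The groups were well apart on the deposited scale, with means of 21.2 ± 3.75 FPKM in the mature group and 8.22 ± 0.876 FPKM in the immature group (SD, n = 3 each). Its log2 fold change of 1.26 (SE 0.44) did not pass the test (adjusted p = 0.400 by limma) and was 0.78 to 0.93 under the 4 other scalings. Irgm1-201 was at 20.0, 14.8 and 20.6 FPKM in mature libraries 1 to 3 and at 6.56, 3.605 and 6.02 FPKM in immature libraries 1 to 3 (log2 fold change 1.63, SE 0.49, adjusted p = 0.413 by limma). Irgm1-202 was at 3.55, 2.09 and 2.59 FPKM in mature libraries 1 to 3 and at 2.495, 3.71 and 2.26 FPKM in immature libraries 1 to 3, a log2 fold change of -0.03 (SE 0.51) that turned to 0.10 without mature 2 and 0.13 without immature 2. Irgm1-201 thus made up 87.2% ± 1.99 of the gene in the mature group and 64.8% ± 13.4 in the immature group (SD, n = 3 each), and a 2-sided exact permutation test gave p = 0.1, the smallest that 3 against 3 allows (0.25 after Benjamini-Hochberg adjustment over the 5 genes compared). The same comparison gave p = 0.1 for Igtp-201 (69.7% ± 25.9 in the mature group and 100% in each immature library), 0.8 for Gbp3-202 and Gbp7-202 and 0.7 for Irgm2-202, each by the exact permutation test. How FPKM is divided between 2 nearly coextensive transcripts depends on the authors' abundance estimates.

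Igtp, which resides on the endoplasmic reticulum and lipid droplets, had a wide spread in the mature group. It was at 23.7, 9.09 and 16.1 FPKM in mature libraries 1 to 3, against 4.38, 7.43 and 5.09 FPKM in immature libraries 1 to 3. Mature 2 was only a little above immature 2. The means of 16.3 ± 7.30 FPKM in the mature group and 5.63 ± 1.595 FPKM in the immature group (SD, n = 3 each) differed by 1.31 on the log2 scale (SE 0.51, adjusted p = 0.436 by limma), and by 0.86 to 1.00 under the 4 other scalings. The separation of the groups rested on its other transcripts: Igtp-201 alone was at 21.9, 6.82 and 6.69 FPKM in mature libraries 1 to 3 and at 4.38, 7.43 and 5.09 FPKM in immature libraries 1 to 3, which overlap. Igtp-202 was at 9.38 FPKM in mature 3 and listed at 0 in the other 5 libraries. Igtp-203 was at 1.76 and 2.27 FPKM in mature 1 and 2 and listed at 0 in the other 4.

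Irgm2, the regulatory IRG of the Golgi, was the gene of the 7 whose groups overlapped. Its values were 8.29, 9.20 and 11.6 FPKM in mature libraries 1 to 3 and 3.88, 4.18 and 8.91 FPKM in immature libraries 1 to 3. Immature 3, the lowest library for Gbp2 and Gbp3, was here the highest of its group and above mature 1. On the log2 scale the difference was 0.75 (SE 0.49, adjusted p = 0.652 by limma), and 25.6% of all genes tested had a larger one. Under the 4 other scalings it was 0.28 to 0.45. Irgm2-202 held 80.9% or more of the sum in every library. Irgm2-201, the transcript that spans Igtp, was at no more than 1.498 FPKM in any library.

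**Figure D3:**
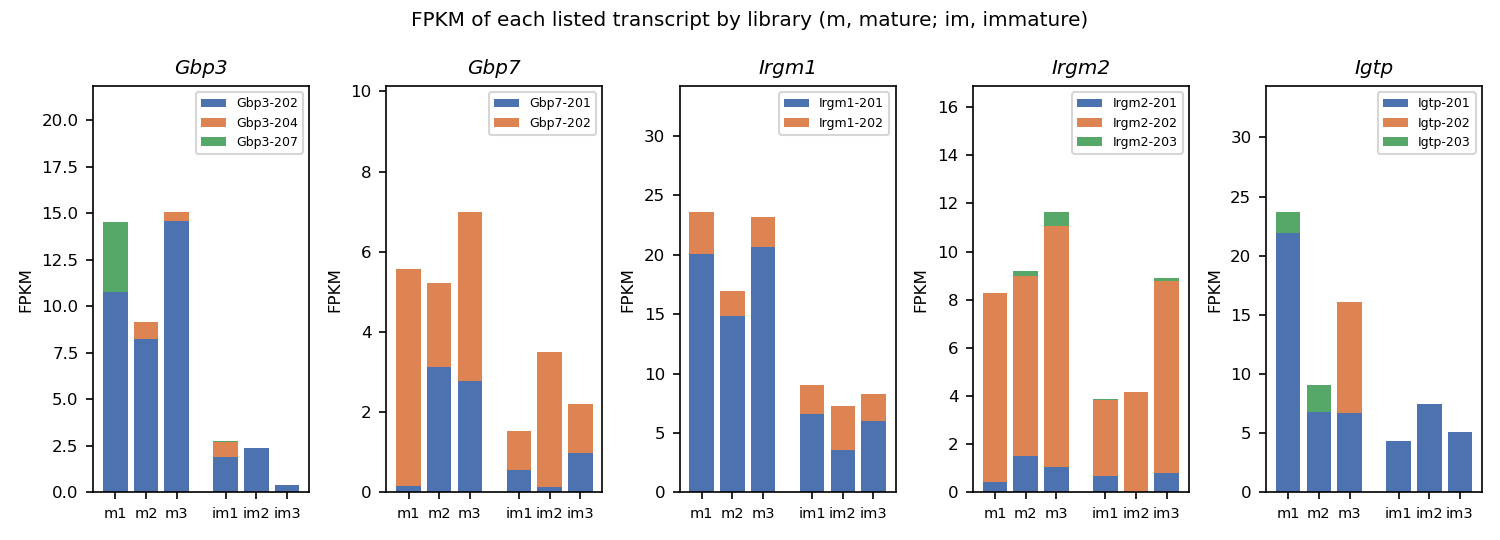
FPKM of each listed transcript of the 5 genes with more than 1, by library, stacked to the gene sum (m, mature; im, immature; the number is the replicate). Irgm1-202 is of similar height in all 6 libraries while Irgm1-201 is taller in the mature ones, and Igtp-202 appears in mature 3 alone.

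Tested one by one, 10 of the 15 transcripts passed the filter and 0 passed limma over 15972 transcripts, where 0.0626% were called higher and 0.0125% lower. Before adjustment, 4 of the 10 were higher with p below 0.05, Gbp5-201, Gbp3-202, Irgm1-201 and Gbp2-201, against 7.39% of all transcripts (0.682% were lower). These 4 were also the ones whose mature values all exceeded the immature ones, which 13.1% of all transcripts did, while 1.39% lay wholly below. Gbp5-201 had the same values as its gene, with an adjusted p of 0.0993 over the larger table.

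**Figure D4:**
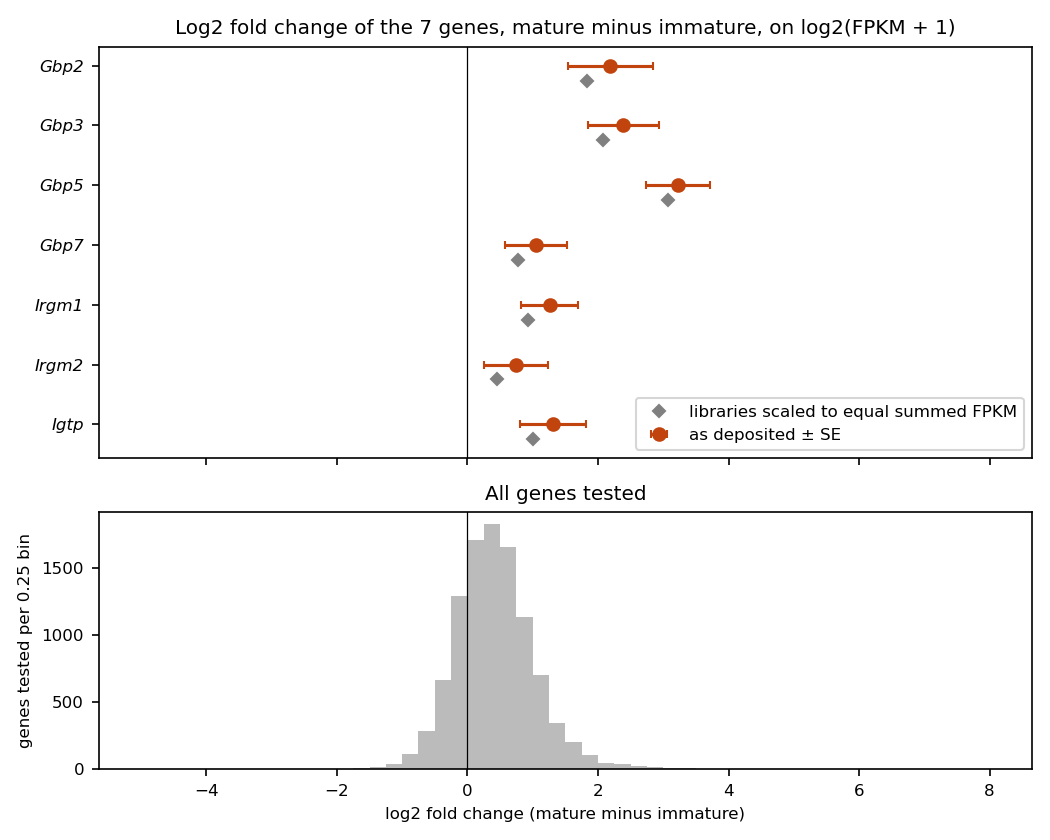
Upper panel, log2 fold changes of the 7 genes (mature minus immature) as deposited with SE and, as diamonds, with libraries scaled to equal summed FPKM; lower panel, number of all genes tested per 0.25 of log2 fold change. All 7 lie right of 0 under both scalings, Gbp5 at 3.23 and 3.07 and Irgm2 at 0.75 and 0.45.

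Of the other genes of the 2 families, 0 passed the test by limma. Among 21 further GBP and IRG-related genes looked for, 18 were listed and 14 passed the filter; 3 (Tgtp1, Tgtp2 and Gm5431) had an unadjusted p below 0.05, against 9.52% of all genes, and the median log2 fold change was 0.64. Under the 4 other scalings and with the replicate block 0 of the 14 did, against 437 to 618 of all 10277 genes. The scaled medians were 0.36 to 0.45 for the GBP genes and 0.26 to 0.43 for the IRG-related genes. Among the chromosome 5 GBP genes, Gbp4 was at 25.2, 5.04 and 22.4 FPKM in mature libraries 1 to 3 and at 9.04, 5.73 and 1.48 FPKM in immature libraries 1 to 3, so the groups overlapped (log2 fold change 1.49, SE 0.71, adjusted p = 0.525 by limma). For Gbp9 and Gbp6 the differences on the log2 scale were 1.06 (SE 0.50) and 0.45 (SE 0.70), and for Gbp8 -0.29 (SE 0.63). Gbp10 was too low to be tested, with values of 1.48, 0 and 3.04 FPKM in mature libraries 1 to 3 and of 0.0813, 0.234 and 0 FPKM in immature libraries 1 to 3.

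Tgtp1, an effector IRG that attacks the vacuole, and Gm5431 were the 2 genes of the IRG-related list whose groups did not overlap. They were 2 of the 10 tested, near the 16.7% of all genes tested that showed this. With libraries scaled to equal summed FPKM it was 1 of the 10, against 10.1%. Tgtp1 was at 6.88, 6.59 and 9.27 FPKM in mature libraries 1 to 3, against 2.10, 2.78 and 3.97 FPKM in immature libraries 1 to 3 (log2 fold change 1.13, SE 0.46, adjusted p = 0.459 by limma). For its near-copy Tgtp2 the log2 fold change was 1.18 (SE 0.53), for Ifi47 1.14 (SE 0.61) and for Iigp1 0.72 (SE 0.55), all with an adjusted p above 0.5 by limma. Gm5431 was at 3.397, 1.13 and 2.75 FPKM in mature libraries 1 to 3 and at 0.232, 0.639 and 0.524 FPKM in immature libraries 1 to 3 (log2 fold change 1.17, SE 0.44, adjusted p = 0.421 by limma). The remaining IRG-related genes tested, Irgc1, Irgq, Gm4951, 9930111J21Rik1 and 9930111J21Rik2, had log2 fold changes of 0 to 0.57. F830016B08Rik, Gm4841 and Gm12185 did not pass the filter, and no level is given for Gbp2b, Gbp11 and Gm12250. Of the larger interferon-inducible GTPases, Gvin1 was at 12.0, 15.9 and 17.8 FPKM in mature libraries 1 to 3 and at 17.0, 5.82 and 22.6 FPKM in immature libraries 1 to 3, a log2 fold change of 0.17 (SE 0.55). Gm4070 had one of -0.06 (SE 0.48) and Mx1, an antiviral dynamin-like GTPase, one of 1.10 (SE 0.50), while Mx2 was at 2.996 FPKM in mature 1 and listed at 0 in the other 5.

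All 9 transcription factors of interferon responses that were tested had positive log2 fold changes, as did 7853 of all 10277 genes tested, and 1 of them, Irf7, rose. Of the 9, 7 had an unadjusted p below 0.05 in the higher direction, against 9.52% of all genes, with a median log2 fold change of 1.49. Under the 4 other scalings 4 or 5 of the 9 did, against 437 to 609 of all 10277 genes, with a median of 1.03 to 1.20. Irf1 was at 49.1, 27.4 and 29.9 FPKM in mature libraries 1 to 3 and at 14.2, 12.4 and 13.3 FPKM in immature libraries 1 to 3 (log2 fold change 1.30, SE 0.46, adjusted p = 0.401 by limma). Its groups did not overlap, and it did not pass the test. Stat2 and Irf9, whose proteins act together at the ISRE, had log2 fold changes of 1.51 (SE 0.47) and 1.49 (SE 0.44). Irf7, which amplifies type I interferon responses, was at 35.8, 69.3 and 124 FPKM in mature libraries 1 to 3 and at 3.99, 7.51 and 3.86 FPKM in immature libraries 1 to 3, and it rose by 3.54 on the log2 scale (SE 0.56, adjusted p = 0.0355 by limma). None of the 9 passed under the 4 other scalings, a pseudocount of 0.1 or the replicate block, nor without mature 2, mature 3 or immature 1. Irf8, a factor of myeloid cells, stood at 1.46 (SE 0.56) and Nlrc5, the MHC class I transactivator, at 1.53 (SE 0.44), while Irf2, a repressor at ISREs, stood at 0.10 (SE 0.46) and Batf2 at 0.42 (SE 0.51).

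Upstream of them, Ifng, the gene of interferon-gamma, was the 1 interferon ligand gene of 21 looked for that was listed. It was at 9.13, 0.366 and 6.92 FPKM in mature libraries 1 to 3 and at 0.229, 1.75 and 0.231 FPKM in immature libraries 1 to 3 (log2 fold change 1.57, SE 0.74, adjusted p = 0.524 by limma). Mature 2, the lowest mature library for Ifng, was also the lowest for Gbp2, Gbp3, Gbp7, Irgm1 and Igtp, and immature 2, the highest immature library for Ifng, was the highest of its group for Gbp2, Gbp5, Gbp7 and Igtp. Gbp5 was highest in mature 2, Irgm1 was lowest of its group in immature 2, Gbp3 was highest of its group in immature 1, and Irgm2 was lowest in mature 1 and highest of its group in immature 3. The share of all genes with the library order of Ifng was not computed, and a relation of Ifng to the 7 genes was not tested. Of the 7 receptor and Janus kinase genes, 0 passed the test and 1 had an unadjusted p below 0.05, against 9.52% of all genes. Their median log2 fold change was 0.78, and 0.27 to 0.44 under the 4 other scalings. That gene was Ifnar2, a subunit of the type I interferon receptor, at 19.7, 31.2 and 49.8 FPKM in mature libraries 1 to 3 and at 6.81, 14.6 and 7.56 FPKM in immature libraries 1 to 3 (log2 fold change 1.68, SE 0.52, adjusted p = 0.327 by limma). For the interferon-gamma receptor genes Ifngr1 and Ifngr2 the log2 fold changes were 0.40 (SE 0.75) and 0.78 (SE 0.47).

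Downstream of the GTPases, 1 of 11 tested caspase-11 and inflammasome genes passed the test, the cytokine gene Il1b with a log2 fold change of 4.63 (SE 0.58, adjusted p = 0.0119 by limma). Of the 11, 4, Il1b included, had an unadjusted p below 0.05 in the higher direction, against 9.52% of all genes. Under each of the 4 other scalings 2 of the 11 did, against 437 to 609 of all 10277 genes. Without mature 1, mature 3 or immature 1, 0 of the 11 passed. Casp4, which encodes caspase-11, was at 2.72, 7.44 and 10.5 FPKM in mature libraries 1 to 3, against 0.445, 2.49 and 1.17 FPKM in immature libraries 1 to 3 (log2 fold change 1.68, SE 0.57, adjusted p = 0.383 by limma). The lowest mature value, 2.72 FPKM, was just above the highest immature one, 2.49 FPKM. For Gsdmd, the pore-forming protein that caspase-11 cleaves, the difference on the log2 scale was 1.19 (SE 0.47), and for Ninj1, which ruptures the membrane after pore formation, 1.67 (SE 0.60). Aim2, Nlrc4 and Pycard were at -0.34 (SE 0.52), -0.36 (SE 0.56) and -0.27 (SE 0.59). The ATG8 conjugation machinery, which steers IRGs and GBPs to vacuoles, had 0 of 12 genes past the test, 2 with an unadjusted p below 0.05 (Map1lc3a and Map1lc3b, both ATG8 genes), against 9.52% of all genes, and a median log2 fold change of 0.48, beside 0.38 over all genes. Under the 4 other scalings 0 or 1 had an unadjusted p below 0.05, against 437 to 609 of all 10277 genes, and the median was -0.01 to 0.13. Among 7 ubiquitin and adaptor genes 0 passed and 2 had an unadjusted p below 0.05, against 9.52% of all genes. These were the cargo receptors Sqstm1 and Tax1bp1 at 1.86 (SE 0.59) and 1.20 (SE 0.46). Under the 4 other scalings 0 or 1 of the 7 did, against the same 437 to 609 genes. The plot of pathway lists sets these groups beside the 7 genes.

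**Figure D5:**
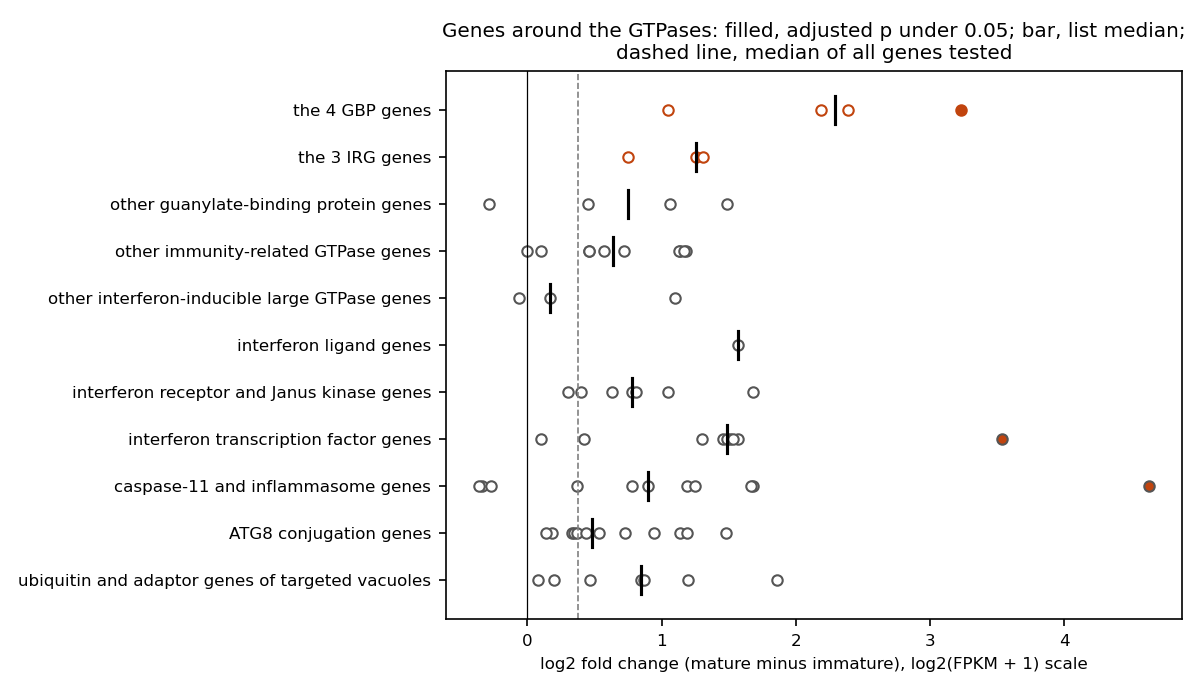
Log2 fold changes (mature minus immature, log2(FPKM + 1) scale) of the 7 genes and of lists of related genes, 1 point a gene; filled points have a limma adjusted p under 0.05, bars are list medians and the dashed line is the median of all genes tested at 0.38. The 4 GBP genes among the 7 have a median of 2.29 and the other GBP genes one of 0.75, and the filled points are Gbp5, Irf7 and Il1b. Because the 7 were chosen with earlier results of these data known, the difference between these medians is not independent evidence.

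Genes whose profile over the 6 libraries lay nearest the mean profile of the 7 did not include another GTPase. Each gene's log2(FPKM + 1) values were centred on its own mean, and the 8 with the smallest root mean square difference from the members' mean were Bgn (0.117), Il12b (0.173), Ube2m (0.179), Sbds (0.181), Zfp688 (0.187), Ncf4 (0.190), Nudt16 (0.190) and Pdzk1ip1 (0.197), in log2 units over 6 libraries. Bgn, which encodes the proteoglycan biglycan, was at 3.79, 2.51 and 4.43 FPKM in mature libraries 1 to 3 and at 0.227, 0.839 and 0.324 FPKM in immature libraries 1 to 3. The 7 genes lay farther from their own mean profile, from 0.333 for Irgm1 and 0.344 for Igtp to 0.863 for Gbp5. The 8 were picked as the nearest of all genes tested by this distance, so that difference followed largely from the choice. That mean profile was 1.02, 0.60 and 0.99 above each gene's own mean in mature libraries 1 to 3 and 0.95, 0.55 and 1.10 below it in immature libraries 1 to 3, while the median of all genes tested stood at -0.34, 0.54 and 0.38 in mature libraries 1 to 3 and at -0.20, -0.53 and 0.10 in immature libraries 1 to 3.

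The labelled cell type was checked against marker genes. All 11 dendritic cell markers were listed, with H2-Ab1, H2-Aa and Cd74, genes of MHC class II antigen presentation, among the highest, at 471 to 661, 420 to 525 and 601 to 1461 FPKM in mature libraries and 209 to 376, 169 to 470 and 265 to 615 FPKM in immature libraries, while Flt3 did not reach 1 FPKM in any library. Itgax was at 21.1 to 32.2 FPKM in mature libraries and 7.36 to 54.9 FPKM in immature ones. Zbtb46 was low, at 0.778 to 2.54 FPKM in mature libraries and 0.335 to 1.29 FPKM in immature ones. T and NK cell markers, whose cells make interferon-gamma, summed to 79.3 to 137 FPKM in the mature group and 45.6 to 146 FPKM in the immature group over the 8 of 12 genes that were listed, most of it Gzma. Cd4, Ncr1, Klrb1c and Trbc2 were looked for by symbol and were not listed, so no level can be given for them. Cd3e was at 2.08, 0.526 and 1.20 FPKM in mature libraries 1 to 3 and at 0.736, 2.38 and 0.161 FPKM in immature libraries 1 to 3. Mature 2 was thus its lowest mature library and immature 2 its highest immature library, as for Ifng, Gzma, Cd3d and Nkg7. The other listed genes did not share both: Cd3g, Cd247 and Cd8b1 were at 0 in immature 2. Cd8a was highest of its group in immature 2 but lowest of its group in mature 3. Macrophage markers summed to 109 to 276 FPKM in the mature group and 80.8 to 111 FPKM in the immature group over 8 of 8 genes, of which Cd14 rose (adjusted p = 0.0344 by limma). Of the 8, 6 had positive log2 fold changes, as did 7853 of all 10277 genes tested. Mrc1 was at -1.15 (SE 0.59) and Mertk at -0.30 (SE 0.78). Neutrophil markers, 8 of 8 listed, summed to 192 to 826 FPKM in the mature group and 156 to 978 FPKM in the immature group. Mast cell, basophil and eosinophil markers, 8 of 8, summed to 51.4 to 91.3 FPKM in the mature group and 13.8 to 42.4 FPKM in the immature group. For erythroid and platelet markers, 7 of 7, the sum was 47.1 to 243 FPKM in the mature group and 40.8 to 384 FPKM in the immature group. B and plasma cell markers, 3 of 6 listed, summed to 0.754 to 3.86 FPKM in the mature group and 0.920 to 3.57 FPKM in the immature group, and stromal and endothelial markers, 5 of 6, to 16.8 to 31.3 FPKM in the mature group and 11.02 to 16.4 FPKM in the immature group. The part of any of these cell types in the results was not tested.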

How the data were processed

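The 6 libraries were grouped and numbered by the sample titles. The authors deposited FPKM by transcript and library, per the file headers. HISAT2 2.0.5, STAR 2.5.2b, StringTie and cutadapt are named, without roles, in the submitters' processing notes, as is hg19. Identifiers in the table are mouse Ensembl ones, and 11310 of 11331 genes with a RefSeq position overlapped it on GRCm38 (99.81%). Whether counting used strand is not given in the sources used here. Listed transcripts reached 0.500024 FPKM or more in at least 1 library.

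FPKM was summed per gene, and limma 3.58.1 (R 4.3.3; trend and robust options) was run on log2(FPKM + 1) of features at 0.5 FPKM or more in at least 3 libraries, Benjamini-Hochberg threshold 0.05, with no block; the procedure was tested on simulated data. Isoform shares were compared with a 2-sided exact permutation test, added after their values were seen. Named were all members and related GTPase genes and, of other lists, genes past the threshold and abundant or role-defining ones; the role-defining ones were chosen after their values were seen. Likeness took the 8 nearest tested genes. Tables and motif searches were made in Python 3.11.15. Protein sequences were not used here, and 1 gene of the transcription factor list is not reported here. Members and lists were chosen with earlier results of these data known.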

Additional observations from a re-analysis of the deposited data

How the results depend on the processing

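Over 22 alternatives (21 for Gbp5), the log2 fold change of each of the 7 genes kept its direction, and the 6 genes other than Gbp5 stayed short of the adjusted threshold throughout. With median-of-ratios, upper-quartile, quantile and summed-FPKM scaling the median of all genes moved to 0.02, 0.03, -0.04 and 0.13, and 2, 3, 2 and 3 of the 7 were higher at an unadjusted p under 0.05. Of all 10277 genes, 480, 498, 437 and 609 were. Gbp5's log2 fold change was 2.89, 2.96, 2.79 and 3.07 there, 5.11 with a pseudocount of 0.1 and 3.02 to 3.52 with 1 library left out (3.16 without mature 1 and 3.03 without immature 1, also over the genes tested with all 6); its call ended under these 5 settings and without mature 1, 2 or 3 or immature 1, and 0 of the 7 passed. Leaving out 1 library gave 0 to 1 of the 7, 0 to 27 genes (1 to 27 over the genes tested with all 6), 0 to 4 transcripts and 0 to 2 of 64 pathway genes (1, 19, 12 and 2 with all 6). Without both mature 1 and immature 2, Gbp5 was left untested by the filter (0 of 6 passed) and the counts were 61 genes and 0 transcripts; over the genes tested with all 6 they were 73 genes, with Gbp5 at adjusted p = 0.0291. A pseudocount of 0.1 gave 9 genes and median-of-ratios scaling 12, and 1 pathway gene passed under the pseudocount and under each of the 4 scalings, where 6 transcripts passed. Irgm1-202 turned to 0.10 without mature 2 and 0.13 without immature 2, within a range of -0.18 to 0.13 with 1 library left out. Same-numbered libraries did not deviate together (correlations -0.03, -0.45 and -0.13 across genes), and differently numbered ones ranged from -0.40 to 0.53. With 3 libraries a group of unlike transcript numbers and mitochondrial share, this cannot show whether same-numbered libraries shared a preparation. With a replicate block Gbp5 stood at 3.23 (adjusted p = 0.127 by limma), and 0 of the 7, 5 genes, 0 transcripts and 1 pathway gene passed. The causes were not tested.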

Other observations

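Some marker genes of other cell types were, as Gbp2 and Ifng were, lowest of the mature libraries in mature 2 and highest of the immature libraries in immature 2. Gzma, a granzyme gene of cytotoxic lymphocytes, was at 118, 73.4 and 91.8 FPKM in mature libraries 1 to 3 and at 43.2, 130.0 and 43.1 FPKM in immature libraries 1 to 3. The collagen gene Col1a1 had 4.15, 0.155 and 5.35 FPKM in mature libraries 1 to 3 and 0.138, 1.91 and 0.215 FPKM in immature libraries 1 to 3. The order of the other libraries differed between these genes. Hbb-bs and S100a8, of red cells and neutrophils, ran the other way, with mature 2 (88.0 and 397 FPKM) and immature 3 (167 and 517 FPKM) the highest of their groups. These genes were chosen after their values were seen, and their relation to the GTPase genes was not tested.

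Of the 8 genes nearest the members' mean profile, 6 matched the promoter table, with 8 windows, and 0 held an ISRE core there, against 3.44% of all windows. So few windows cannot tell 0 from that share. Among other IRG-related genes looked for, 5 of the 9 matched held one, Tgtp1 and Tgtp2 among them, and Gbp2b, the 1 other GBP gene matched, held one too. Of the transcription factor genes, Stat2 and Irf2 held one, out of 6 matched.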
